A study of Mus musculus with 11 samples.

Results

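Tamoxifen-induced deletion of Kif20a was compared with its wild-type controls in 5 of the 11 RNA-seq libraries of the series, 3 knockout and 2 wild-type libraries. Every autosomal gene with an average normalized count of 10 or more across these 5 libraries was a member, which gave 13574 of the 19583 autosomal genes listed. The knockout embryos carried Nestin-CreERT2 and Kif20a fl/fl. CreERT2 is a Cre recombinase fused to a mutated ligand-binding domain of the human estrogen receptor, so that it enters the nucleus when tamoxifen is given, and Nestin drives it in neural progenitors. The dams received tamoxifen on days E9.5 and E10.5, and tissue was collected at E12.5. The labels call it forebrain, whereas the study's methods speak of cortical cells, so how much ventral tissue was taken is not known. The controls are labelled wild type and were littermates of the mutants. In other experiments of the study the controls were Kif20a fl/fl without Cre, and the labels do not say which floxed alleles the 2 control libraries carried or how many embryos made up a library. The floxed mice all descend from 1 embryonic stem cell clone, and deletion occurs only in cells in which the Nestin transgene is active. Nothing states that libraries of a group came from separate litters, so P values measure the spread between these libraries.

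Kif20a is a mitotic kinesin that carries the chromosomal passenger complex to the central spindle and takes part in cytokinesis. In the telencephalon at this age, apical progenitors divide at the ventricle, and the dorsal midline forms the cortical hem and the choroid plexus. The hem secretes Wnt and BMP ligands that pattern the adjacent cortex, and the choroid plexus epithelium next to it bears motile cilia, whose genes are switched on by Foxj1. Interferon response genes form a separate programme: signals from interferon receptors act through interferon-stimulated response elements (ISREs) in promoters and switch on antiviral genes.

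The deposited normalized counts summed to between 24118520 and 24497307 per library. Values per library are given in the order of the replicate numbers, controls first. The most frequent value near 1 lay between 0.94 and 1.06, so that a normalized count stands for about 1 read. Values at or under 3 normalized counts were taken as having no order. Spearman's rho between libraries across autosomal genes lay between 0.993 and 0.997. The neural progenitor gene Nes had between 24122 and 27370.1 normalized counts, so a marker of the labelled tissue was present in every library. The groups differed in Y-linked transcripts. Kdm5d and Eif2s3y were at 0 in each of the 2 wild-type libraries and stood between 863 and 1386 normalized counts in all 3 knockout libraries, and 9 of 9 Y-linked genes tested were higher. The knockout and the Y-linked difference cannot be told apart. All comparisons below therefore concern autosomal genes, which does not remove effects of this difference on them.

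Kif20a itself had 4760.2 and 4844 normalized counts in the controls against 3125, 2915 and 2853 in the knockouts. The groups did not overlap, and 61.7% of the wild-type mean remained (log2 fold change -0.70, standard error 0.06, adjusted p = 0.0107 from limma with Benjamini-Hochberg adjustment). The exact permutation p (two-sided) was 0.1, which no split of 2 against 3 libraries can go under. The gene lies at chr18:34784278-34792919 on the plus strand (mm9), and the counts add exons inside and outside the floxed segment. Without wild-type replicate 1, wild-type replicate 2 or knockout replicate 2 the log2 fold change was -0.71, -0.68 and -0.69, but the adjusted p from limma rose to 0.142, 0.193 and 0.162. Among 107 other genes tested within 5 Mb of Kif20a, the median log2 fold change was -0.01 and 1 passed the thresholds, Syt4.

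Esr1, the mouse estrogen receptor gene, was the autosomal gene with the largest difference. It stood at 0.99 and 0.01 normalized counts in the control and at 142, 163 and 135 in the deleted libraries, and the groups were far apart. Rounded to whole counts this was 1 count in 2 libraries against 440 in 3, a ratio of 293 per library (exact 95% interval from 52.4 to 11612, counting error only). The fitted log2 fold change of 6.70 depends on the pseudocount, and limma gave an adjusted p of 0.000711. Gene-level values cannot separate reads of the endogenous gene from reads of the receptor domain in CreERT2.

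Kif20a and Esr1 were the 2 autosomal genes (0.0147% of 13574) with an adjusted p under 0.05 from limma. At the thresholds of the study, 1.5-fold and P up to 0.05 without adjustment, 67 autosomal genes (0.494%) were lower and 100 (0.737%) higher. The P values here are from limma and differ from the study's own. Of the 100 higher genes, 27 had a wild-type mean under the filter of 10 and were tested only through their knockout libraries. Of the 67 lower genes, 4 had a knockout mean under it. Such genes could differ in 1 direction only. With both group means over the filter (13408 genes), 63 were lower and 73 higher. An unadjusted P of at most 0.05 alone was reached by 795 genes (5.86%), where 678.7 are expected without any difference. The genes counted below as lower or higher are those past both thresholds, and apart from Kif20a and Esr1 their adjusted p from limma was at least 0.0605, with a median of 0.825 over all called genes. Without wild-type replicate 1 the count of higher genes was 230, and without wild-type replicate 2 that of lower genes was 42. All 3 knockout libraries lay below both wild-type libraries for 1671 genes (12.3%) and above them for 1375 (10.1%). Over all autosomal genes the median log2 fold change was -0.0033.

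The called genes were mostly weakly expressed. A mean under 100 normalized counts was found for 82 of the 100 higher and 46 of the 67 lower genes, against 2583 of all 13574 (19.0%). Only 2 of the higher and 3 of the lower genes had a mean over 1000. The knockout library that was furthest from the controls was not the same in both directions. For the lower genes, knockout replicate 3 was the lowest in 45 of 67, and for the higher genes knockout replicate 1 was the highest in 46 of 100. Called genes made up between 0.377% (chromosome 9) and 3.11% (chromosome 19) of the genes tested on each autosome. Of the 15 genes on chromosome 19, 8 were lower and 7 higher.

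**Figure D1:**
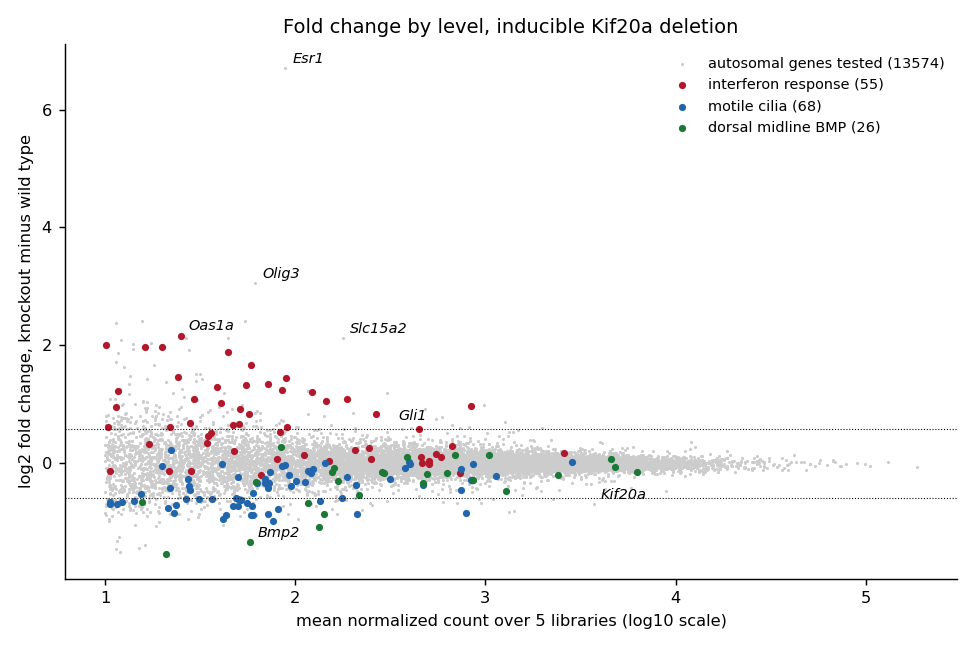
Log2 fold change (knockout minus wild type, on the log2(normalized count + 1) scale) of each of 13574 autosomal genes against its mean normalized count on a log10 axis. Coloured points are the tested members of 3 gene lists, dotted lines mark a 1.5-fold change, and most points beyond the lines lie at means under 100.

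Of 25 gene lists, the interferon response list had the most called genes, 20 of 55 tested and all of them higher, and the motile cilia list came next, with 12 of 68 and all of them lower. The BMP list had 5 of 26 lower. The choroid plexus list had 4 of 22 lower, the same number of calls as the microglia (4 of 27) and neuronal differentiation (4 of 39) lists had higher. Every other list had at most 2 called genes. The lists held 26 of the 67 lower and 33 of the 100 higher genes. The members and lists were chosen with earlier results of these data known, so their counts describe these libraries and are no independent support. The plot of list medians by library shows which libraries set each pattern.

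**Figure D2:**
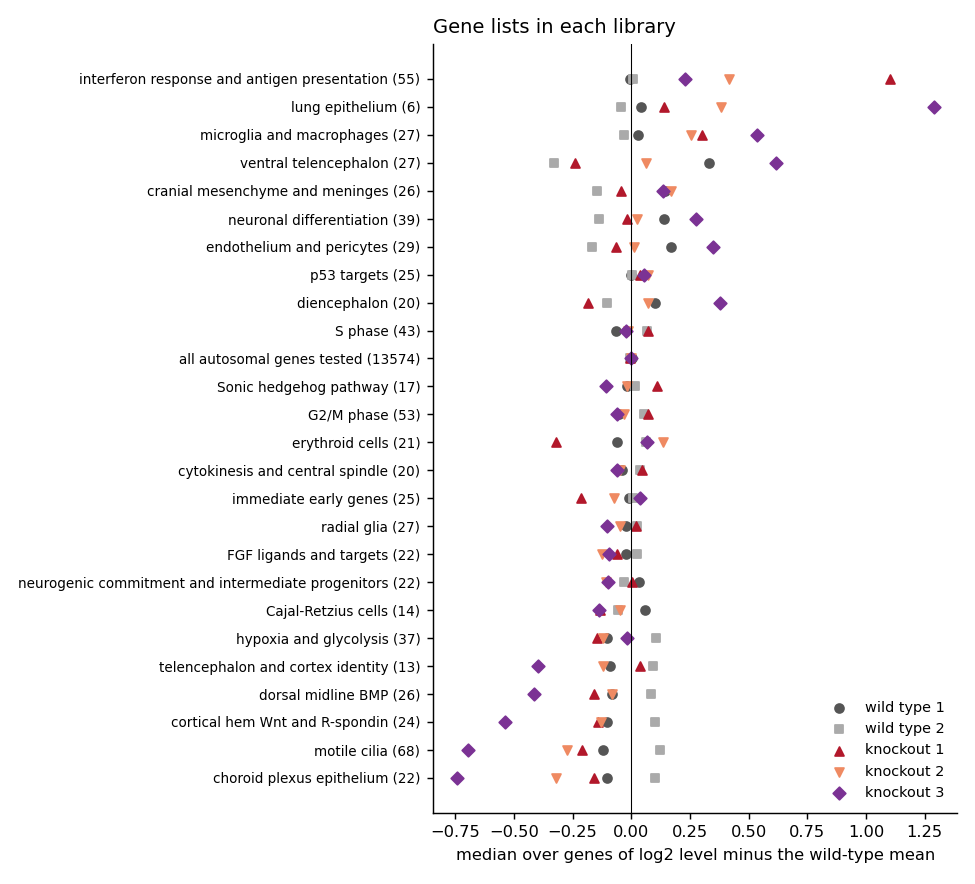
Median over the tested genes of each list (number in brackets) of the log2 level in 1 library minus the mean of the 2 wild-type libraries, with lists ordered by their log2 fold change. Knockout replicate 3 lies furthest to the left for the choroid plexus, motile cilia, cortical hem and BMP lists, and knockout replicate 1 furthest to the right for the interferon list.

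In the cortical hem list, which holds secreted Wnt signals, 2 of 24 genes tested were lower, Rspo1 and Dkk3. R-spondins are secreted proteins that amplify Wnt signalling by removing the receptor-degrading ligases Rnf43 and Znrf3. Rspo1 had 1592 and 1956 normalized counts in the controls against 1196, 1265 and 639 in the knockouts. The groups did not overlap, and knockout replicate 3 was far below the other knockouts (log2 fold change -0.84, standard error 0.28). Rspo2 was at 1613 and 2085 normalized counts without and at 1473, 1309 and 596 with the deletion. Its log2 fold change of -0.81 missed the P threshold in this limma fit, whereas the study's own P value places Rspo2 among its lower genes. Rspo3 overlapped between the groups (-0.42). All 6 Wnt ligands of the list had negative log2 fold changes, between -0.70 (Wnt9a) and -0.16 (Wnt5a). None of them passed both thresholds.

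Wnt8b, which marks the hem and the medial cortex, had 2614 and 2950.4 normalized counts in the controls against 2389, 2121 and 1214 in the knockouts. Every knockout library was below both controls (log2 fold change -0.60, just short of the P threshold in this limma fit). The study, by its own P value, lists Wnt8b among its lower genes. Wnt3a, the hem ligand needed for growth of the hippocampus, stood at 326 and 439 normalized counts in the control and at 288, 310.1 and 158 in the deleted libraries (-0.64). Again the groups were apart, and knockout replicate 3 was the lowest. Dkk3, a secreted protein of the Dickkopf family, was the other member past both thresholds, with 718 and 799 normalized counts in controls against 495, 595 and 380 in knockouts (-0.65, standard error 0.17).

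Over the 24 tested genes of the hem list, 2 were lower and 0 higher. In 11 all knockouts lay below both controls and in 0 above, beside 12.3% and 10.1% of all autosomal genes. The median log2 fold change was -0.29, beside -0.0033 over all autosomal genes. The median was -0.17 without knockout replicate 3, and then 0 of the genes passed both thresholds. Without wild-type replicate 2 it was -0.26, also with 0 genes past them, and without knockout replicate 1 it was -0.35 with 6 lower. In a bulk library, fewer hem cells and less RNA per hem cell cannot be told apart.

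Of the BMP signalling genes of the dorsal midline, 5 of 26 tested were lower. BMP ligands are secreted factors that pattern the roof plate and induce the choroid plexus, and 3 of the 6 ligands tested were lower. Bmp6 had 170.4 and 218 normalized counts in the controls against 101, 128 and 90.5 in the knockouts. All 3 knockout libraries were below the controls (log2 fold change -0.87, standard error 0.19). Gdf5 was at 154 and 145 normalized counts without and at 101, 106 and 74.6 with the deletion (-0.68, standard error 0.18). Bmp2 had 82.8 and 90.5 normalized counts in the controls against 50.7, 51.2 and 14.3 in the knockouts, so that its log2 fold change of -1.34 was -0.75 without knockout replicate 3.

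The other ligands changed less. Bmp4 stood at 234 and 295 normalized counts in the control and at 193, 201 and 154 in the deleted libraries (-0.53), and Bmp7 had a log2 fold change of -0.29. For both, every knockout library was below the controls, but the 1.5-fold threshold was missed. Bmp5 overlapped (-0.31). Of 5 secreted BMP inhibitors, Grem1 was lower, with 26.6 and 40.3 normalized counts in controls against 8.7, 5.31 and 24.1 in knockouts (-1.55, standard error 0.57). Here knockout replicate 3 was close to the controls and the other two were well below them, the opposite of the ligands. The call of Grem1 held when knockout replicate 3 was left out (-2.11) and was lost when any other library was (-1.84 to -1.11).

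Among transcriptional targets of BMP signalling, Msx2, a homeobox gene of the dorsal midline, had 154 and 231 normalized counts in the controls against 117, 105 and 56.8 in the knockouts (log2 fold change -1.08, standard error 0.32). The groups did not overlap. Msx1 and Id3 had log2 fold changes of -0.34 and -0.47, again with every knockout library below the controls. The 7 receptors and Smads tested had a median of -0.08 and none passed the thresholds. Over all 26 genes of the BMP list, 5 were lower and 0 higher. In 11 all knockouts lay below both controls and in 0 above, beside 12.3% and 10.1% of all autosomal genes. The list median was -0.19. It was -0.11 without knockout replicate 3, with 4 lower, and without wild-type replicate 2 only 2 were lower.

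Of the choroid plexus epithelium genes, 4 were lower. Trpm3, a cation channel abundant in this epithelium, was at 1144 and 1252 normalized counts without and at 940.3, 867 and 522 with the deletion (log2 fold change -0.67, standard error 0.23). Clic6, an intracellular chloride channel protein, had 1035 and 1272 normalized counts in the controls against 1012, 704 and 592 in the knockouts (-0.61, standard error 0.21). In both, the groups did not overlap and knockout replicate 3 was the lowest, while knockout replicate 1 was the closest to the controls. The tight junction gene Cldn1 (-0.64) and the keratin gene Krt8 (-0.61) were also lower, and for Cldn1 the groups overlapped, with 180.2 normalized counts in knockout replicate 1 against 176.3 in wild-type replicate 1. Ttr, the main secreted product of the mature choroid plexus, ranged from 1025 in knockout replicate 3 to 2430.4 in wild-type replicate 2 and overlapped between the groups (-0.47).

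Of 22 choroid plexus genes tested, 4 were lower and 0 higher, beside 0.494% and 0.737% of all autosomal genes. In 8 all knockouts lay below both controls and in 1 above, beside 12.3% and 10.1% of all autosomal genes. The median log2 fold change was -0.49. It was -0.16, -0.32 and -0.74 in knockout replicates 1, 2 and 3 relative to the wild-type mean. Leaving out knockout replicate 3 left 1 gene past both thresholds (median -0.30) and leaving out wild-type replicate 2 left 0 (-0.31). Leaving out knockout replicate 1 gave 10 (-0.56) and leaving out wild-type replicate 1 gave 7.

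Motile cilia genes made up the largest group among the lower genes, with 12 of 68 tested lower and 0 higher. Foxj1, the transcription factor that switches on the motile cilia programme, stood at 951 and 1182 normalized counts in the control and at 726, 641 and 442 in the deleted libraries (log2 fold change -0.84, standard error 0.20). Ccno, a cyclin-like gene needed for the amplification of centrioles in multiciliated cells, had 247 and 329.9 normalized counts in the controls against 181, 184 and 117 in the knockouts (-0.85, standard error 0.23). In both genes all knockout libraries were below the controls and knockout replicate 3 was the lowest. The other regulators changed less: Rfx2, a factor that acts with Foxj1, had a log2 fold change of -0.37, and Rfx3 had 0.01.

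Several structural genes of the axoneme were lower as well. Dnaic2, an intermediate chain of the outer dynein arm, was at 68.9 and 93.5 normalized counts without and at 44.7, 49.1 and 37.3 with the deletion (log2 fold change -0.87, standard error 0.22). Dynlrb2, a dynein light chain, had 49.2 and 66.9 normalized counts in the controls against 36.0, 40.0 and 17.3 in the knockouts (-0.95, standard error 0.38). Cfap126, a protein of cilia and basal bodies, stood at 91.6 and 126 normalized counts in the control and at 65.2, 54.5 and 44.8 in the deleted libraries (-0.98, standard error 0.23). The groups did not overlap in any of the 3 genes. Dynlrb2 fell to a log2 difference of -0.58 without knockout replicate 3 and then missed the thresholds, while Cfap126 stayed past them whichever library was left out.

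All 12 dynein subunit genes and all 10 radial spoke and central pair genes tested had negative log2 fold changes, with medians of -0.27 and -0.62. Of these, 2 and 3 were lower, Dnaic2 and Dynlrb2, and Rsph1, Ropn1l and Lrrc23. Over the 68 genes, 31 lay with every knockout library below both controls and 1 with every one above. The shares of all autosomal genes were 12.3% and 10.1%. The median log2 fold change was -0.42, and it was -0.21, -0.27 and -0.70 in knockout replicates 1, 2 and 3. Knockout replicate 3 was the lowest knockout in 56 of the 68 genes (82.4%), beside 36.9% of all autosomal genes tested. Other lists had high shares too, 79.2% for the G2/M phase and 65.5% for the interferon list. Without knockout replicate 3, 8 genes were lower (median -0.28), without wild-type replicate 2 only 5 (-0.35), and without knockout replicate 1 there were 18 (-0.50).

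**Figure D3:**
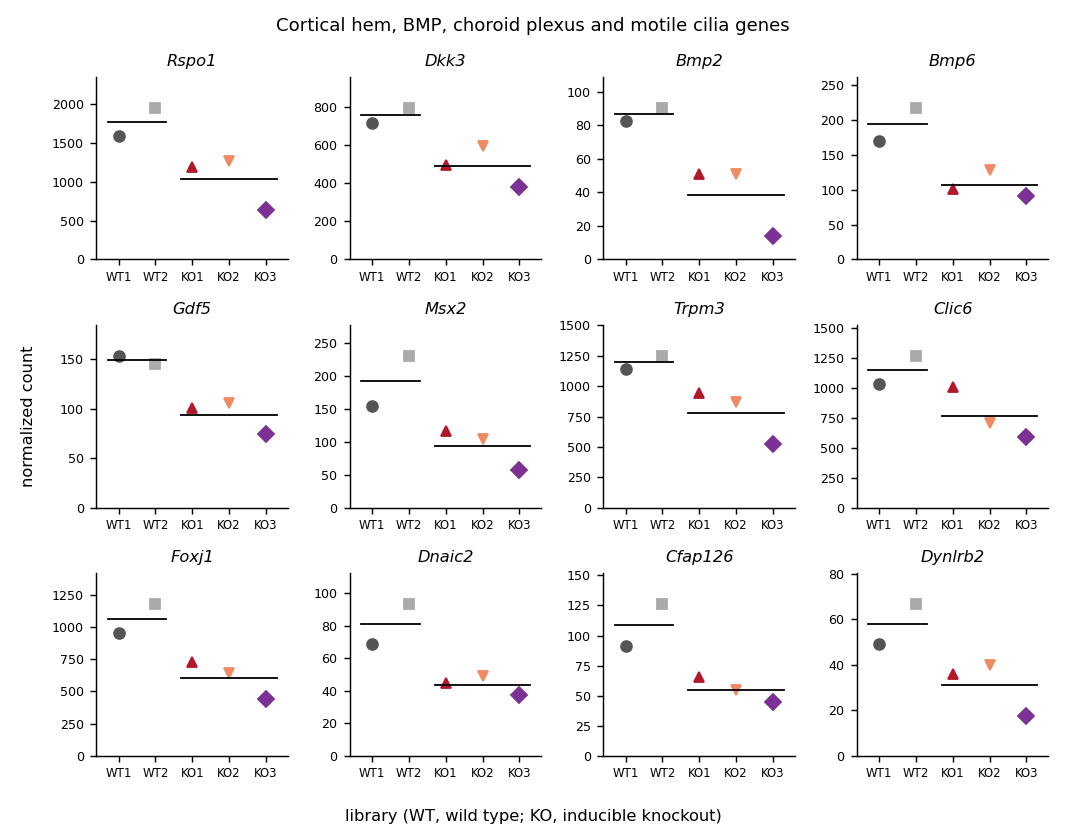
Normalized counts of 12 genes of the cortical hem, BMP, choroid plexus and motile cilia lists in each library, from 0, with a line at each group mean (2 wild-type and 3 knockout libraries). The 3 knockout libraries lie under both controls in every panel, and knockout replicate 3 is the lowest in every panel.

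Levels of ventral marker genes varied between the libraries, with wild-type replicate 1 and knockout replicate 3 at the high end. Nkx2-1, which marks the ventral telencephalon and hypothalamus, had 1902 and 79.0 normalized counts in the controls against 372, 653 and 1911 in the knockouts. Shh, a ligand of the ventral midline, was at 281 and 31.2 normalized counts without and at 60.6, 180.3 and 449 with the deletion. Both genes were high in wild-type replicate 1 and knockout replicate 3 and lowest in wild-type replicate 2. The summed level of the 27 ventral telencephalon genes was between 27776 and 37905 in the wild-type and between 29014 and 40321 in the knockout libraries. The list had 0 genes lower and 0 higher, and its median log2 fold change was 0.10, and it moved to 0.37 and -0.28 when wild-type replicates 1 and 2 were left out in turn. In a bulk library, more ventral cells and more RNA per ventral cell cannot be told apart. The part of this variation in the lower hem, choroid plexus and cilia genes was not tested.

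Interferon response genes were the largest group among the higher genes: 20 of 55 tested were higher and 0 lower. Of the 55, 7 had a wild-type mean under the filter of 10 normalized counts and were tested only through their knockout libraries, so they could differ in 1 direction only, and 4 of them are among the 20. Of the 48 with both group means over the filter, 16 were higher and 0 lower. Oas1a, an enzyme that senses double-stranded RNA and activates RNase L, had 4.92 and 7.42 normalized counts in the controls against 73.3, 20.8 and 18.4 in the knockouts (log2 fold change 2.16, standard error 0.59). Ifit3, an antiviral protein of the Ifit family, stood at 3.94 and 5.31 normalized counts in the control and at 39.1, 23.04 and 9.86 in the deleted libraries (1.97, standard error 0.56). Gbp3, an interferon-induced GTPase, had 4.92 and 7.42 normalized counts in the controls against 42.0, 29.6 and 15.2 in the knockouts (1.97, standard error 0.46). In each of them every knockout library was above both controls, and knockout replicate 1 was the highest. Oas1a, Ifit3 and Gbp3 had wild-type means of 6.17, 4.62 and 6.17, under the filter of 10. They are thus among the 4 called genes that could differ in 1 direction only.

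The ISRE is the element through which interferon signals act, and some promoters of these genes hold its core. In the stretches below, taken from RefSeq promoters (GRCm38.p6) and written 5′ to 3′ on the strand of the gene, capitals mark matches to the ISRE core GAAANNGAA on either strand, and adjacent or overlapping matches run together.
Oas1a, chr5:120907526-120907570, minus strand: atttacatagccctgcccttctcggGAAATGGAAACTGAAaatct
Ifit1, chr19:34640755-34640838, plus strand: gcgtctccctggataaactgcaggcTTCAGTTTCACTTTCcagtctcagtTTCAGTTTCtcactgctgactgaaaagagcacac
Gbp3, chr3:142559975-142560039, plus strand: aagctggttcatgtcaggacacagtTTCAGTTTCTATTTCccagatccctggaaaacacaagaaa
Irgm1, chr11:48871421-48871475, minus strand: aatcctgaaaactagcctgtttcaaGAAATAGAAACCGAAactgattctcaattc
Bst2, chr8:71537563-71537627, minus strand: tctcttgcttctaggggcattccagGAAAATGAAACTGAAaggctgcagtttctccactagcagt
Irgm2, chr11:58214888-58214946, plus strand: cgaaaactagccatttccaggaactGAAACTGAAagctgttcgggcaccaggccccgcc
The 6 stretches are shown because these genes were among the 20 called ones and cover the Oas, Ifit, GTPase and tetherin families.

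The core was searched in the 250 bases before the start of each gene. It was present in 746 of 10201 tested autosomal genes with a promoter in the table (7.31%) and in 8.18% of all 27025 genes of the table. Of the 68 higher genes with a promoter, 17 (25%) held it, and of the 48 lower genes 4 (8.33%) did. Within the interferon list it was in 22 of the 47 tested members with a promoter (46.8%), among them 10 of the 17 called ones. A match describes these letters only. The X-box half-site GTTGCCA, to which Rfx factors bind, was in 3.87% of tested autosomal genes, in 2 of the 10 called motile cilia genes with a promoter (Ccno and Lrrc23) and in 0 of the 68 higher genes.

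The interferon genes are best followed by role. Irf7, a transcription factor that amplifies the response, had 5.88 and 16.9 normalized counts in the controls against 53.7, 25.6 and 18.4 in the knockouts (log2 fold change 1.46, standard error 0.56). All knockout libraries exceeded the controls, although knockout replicate 3 exceeded wild-type replicate 2 by little. Stat2, another signalling factor, overlapped between the groups (-0.01). Irf9 stood at 314 and 359 normalized counts in the control and at 722, 426 and 409 in the deleted libraries (0.58) and missed the 1.5-fold threshold.

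Among 18 antiviral effectors tested, 8 were higher, beside 0.737% of all autosomal genes, with a median log2 fold change of 0.97. Bst2, or tetherin, which retains budding viruses at the cell surface, had 39.4 and 47.9 normalized counts in the controls against 180.4, 76.9 and 80.1 in the knockouts (1.24, standard error 0.37). Ifit1, which binds RNA that lacks the host's cap marks, was at 1.97 and 2.13 normalized counts without and at 31.3, 11.9 and 3.44 with the deletion, so that knockout replicate 3 was barely above the floor of 3. The wild-type mean of Ifit1 was 2.05, under the filter of 10, so it was tested only through its knockout libraries. Of 5 interferon-induced GTPases, 4 were higher, and all 5 lay with every knockout library above the controls. The shares of all autosomal genes were 0.737% and 10.1%. Gbp3, among these 4, had a wild-type mean of 6.17 and was likewise tested only through its knockout libraries. Irgm1, a GTPase that acts on vacuoles of pathogens, had 40.4 and 36.3 normalized counts in the controls against 219, 92.7 and 59.3 in the knockouts (1.45, standard error 0.48). Usp18, which removes Isg15 from proteins and damps interferon receptor signalling, stood at 10.8 and 13.8 normalized counts in the control and at 137, 41.9 and 18.8 in the deleted libraries (1.89, standard error 0.71).

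The antigen presentation genes of the same list had smaller differences. The 8 genes of MHC class I, its peptide transporter and the immunoproteasome had a median log2 fold change of 0.09 and none passed the thresholds. B2m, the invariant chain of MHC class I, had a log2 fold change of 0.15, and H2-K1 had 0.11. The interferon genes Ifnb1, Ifna1 and Ifng were listed at 0 in all 5 libraries, and the receptor genes Ifnar1, Ifnar2, Ifngr1 and Ifngr2 had log2 fold changes between -0.13 and 0.02 with overlapping groups.

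Over the 55 genes, 34 lay with every knockout library above both controls and 0 below, beside 10.1% and 12.3% of all autosomal genes. The median log2 fold change was 0.61. It differed between the knockout libraries, at 1.10, 0.42 and 0.23 in replicates 1, 2 and 3, and in 34 of the 55 genes (61.8%) the 3 knockout libraries stood in this order, beside 23.04% of all autosomal genes. Lists with at most 1 called gene showed this order at like or higher shares, in 73.6% of the G2/M phase genes and in 12 of the 20 cytokinesis genes. Knockout replicate 1 was the highest knockout for 19 of the 20 called genes. Without knockout replicate 1 the median was 0.31, and 13 genes were higher. Without knockout replicate 3 it was 0.78 with 28 genes higher, and when either of the wild-type libraries was left out 9 genes were higher. The count was 11 with a mean of at least 50 and on the RPKM scale, and 13 without the mean-variance trend. Usp18 had a log2 fold change of 1.14 without knockout replicate 1 and of 2.54 without knockout replicate 3. Oas1a had 1.54 without knockout replicate 1, and Ifit1 had 2.74 without knockout replicate 3.

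Other genes among the 12 largest increases belong to the same families. Ifi204, Gbp6, Gbp10, Oas1g and I830012O16Rik had wild-type means under the filter of 10. They were tested only through their knockout libraries, so they could differ in 1 direction only. Ifi204, an interferon-inducible DNA sensor of the p200 family, had 5.90 and 9.54 normalized counts in the controls against 61.5, 23.6 and 32.0 in the knockouts. Gbp6 and Gbp10 had log2 fold changes of 1.92 and 2.04. Oas1g was at 2.95 and 3.20 normalized counts without and at 43.0, 14.5 and 14.0 with the deletion. These families hold near-identical copies between which reads can be split, as do Oas1a and Oas1g, so the value of a single member is uncertain. Gvin1 and Gm4070, 2 of the 100 higher genes, have identical values in all 5 libraries and can be the same reads. I830012O16Rik (2.38) moved with wild-type replicate 1 left out (1.68) and with wild-type replicate 2 left out (3.08).

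**Figure D4:**
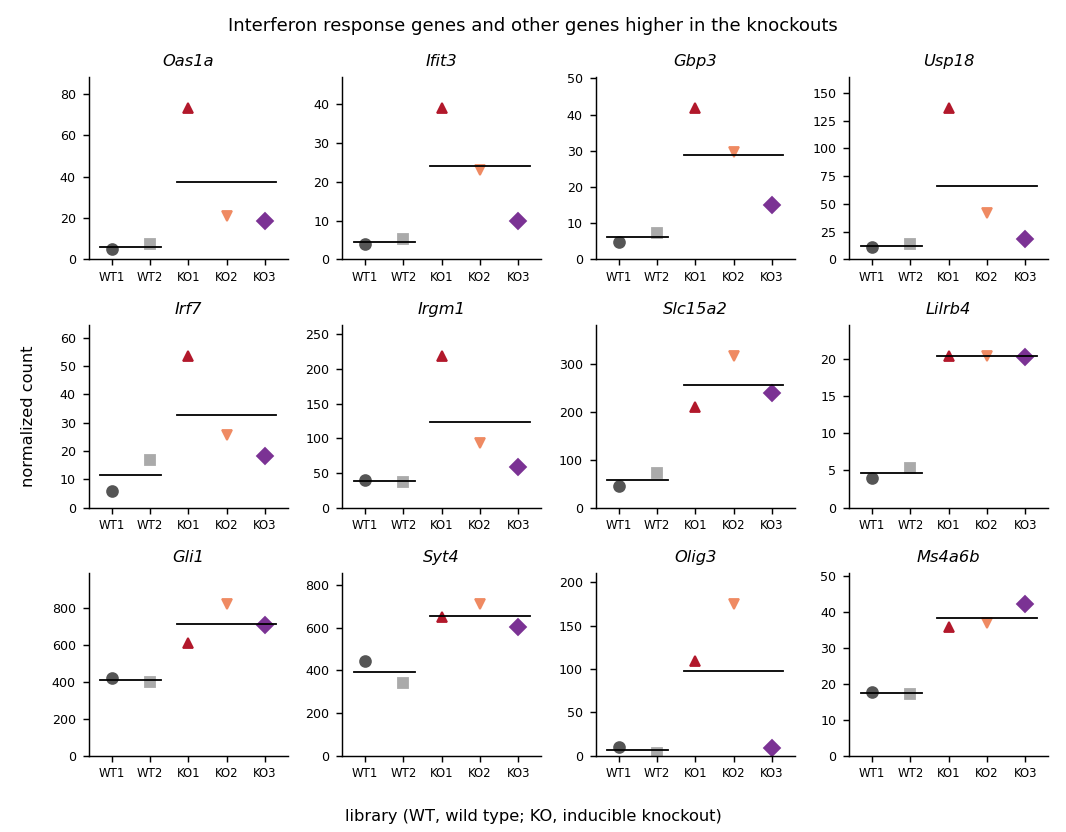
Normalized counts of 12 genes in each library, from 0, with a line at each group mean (2 wild-type and 3 knockout libraries). Knockout replicate 1 is the highest library for the 6 interferon genes, whereas Slc15a2, Lilrb4, Gli1, Syt4 and Ms4a6b are raised in all 3 knockouts and Olig3 in knockout replicates 1 and 2 only.

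Some markers of macrophages were higher. Of 27 microglia and macrophage genes tested, 4 were higher and 0 lower. In 10 every knockout library lay above both controls and in 0 below, beside 10.1% and 12.3% of all autosomal genes. The median log2 fold change was 0.35, within 0.27 to 0.38 whichever library was left out. The summed level of the list was 2764 and 2498 normalized counts in controls and between 2941 and 3450.4 in knockouts. Ms4a6b, a membrane protein of macrophages, had 17.7 and 17.1 normalized counts in the controls against 35.9, 36.9 and 42.4 in the knockouts (1.09, standard error 0.23). Spp1, or osteopontin, stood at 25.6 and 24.5 normalized counts in the control and at 42.7, 53.7 and 52.99 in the deleted libraries (0.95, standard error 0.22). Ms4a6d (1.26) and the complement receptor gene C3ar1 (0.68) were the other higher members. Lilrb4, an inhibitory receptor of myeloid cells outside the list, had 3.94 and 5.31 normalized counts in the controls against 20.4, 20.3 and 20.2 in the knockouts (1.93, standard error 0.32). The wild-type mean of Lilrb4 was under the filter of 10, so it was tested only through its knockout libraries.

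Defining microglial genes overlapped between the groups. Csf1r, the receptor these cells depend on, was at 275 and 208 normalized counts without and at 210, 216 and 289 with the deletion (-0.02), and Tmem119 had a log2 fold change of -0.03. The microglial and the interferon lists differed in the library that was highest, knockout replicate 3 for the microglial list (median 0.54) and knockout replicate 1 for the interferon list. Without wild-type replicate 2, 9 microglial genes were higher. The part of these cells in the interferon genes was not tested.

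Slc15a2, a proton-coupled peptide transporter, had the smallest P after Esr1 among the autosomal genes called higher. It had 45.3 and 72.2 normalized counts in the controls against 211, 318 and 240.0 in the knockouts. All knockout libraries exceeded the controls by more than the spread within either group (log2 fold change 2.12, standard error 0.25, adjusted p = 0.0605 from limma with Benjamini-Hochberg adjustment), and the log2 fold change stayed between 1.79 and 2.45 whichever library was left out.

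Of the Sonic hedgehog pathway, Gli1 was the only one of 17 genes tested that passed both thresholds. Gli1, a transcription factor that is itself a target of the pathway, stood at 419.8 and 399 normalized counts in the control and at 609, 821 and 704 in the deleted libraries. The groups were apart (log2 fold change 0.79, standard error 0.13), and it stayed between 0.68 and 0.89 whichever library was left out. The other targets Ptch1 (0.29) and Hhip (0.80) overlapped between the groups, and Shh itself varied as described above. The list had a median of -0.01.

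Fgf15, a ligand of progenitors in the forebrain, had 1743 and 1295 normalized counts in the controls against 2119, 2575 and 2143 in the knockouts (0.59, standard error 0.14). Every knockout was above the controls, but without wild-type replicate 2 the log2 fold change was 0.38. The other tested FGF genes did not follow: of 22, 1 was higher and 0 lower, 18 had negative values, and the median was -0.08. Among them Il17rd, a feedback inhibitor of FGF signalling, was at 2840 and 2993 normalized counts without and at 2056, 2277 and 2049 with the deletion (-0.46, standard error 0.07), less than 1.5-fold.

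Olig3, which marks progenitors of the dorsal thalamus, had 9.88 and 3.29 normalized counts in the controls against 109, 175 and 8.45 in the knockouts. It was high in knockout replicates 1 and 2 and at the control level in knockout replicate 3, so the groups overlapped, and its log2 fold change of 3.06 was 4.35 without knockout replicate 3 and 2.24 without knockout replicate 2. It was 3.73 and 2.38 without wild-type replicates 1 and 2. Wnt3, a ligand of the diencephalon, stood at 12.8 and 11.7 normalized counts in controls and at 58.5, 51.0 and 16.4 in knockouts. Wnt3 was raised mostly in the same 2 libraries, with every knockout library above both controls. It passed both thresholds (log2 fold change 1.51, standard error 0.52) but is outside the diencephalon list. Of 20 diencephalon genes tested, 1 was higher, Olig3, and 0 lower, and the median was 0.05. The wild-type mean of Olig3 was under the filter of 10, so it was tested only through its knockout libraries.

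Genes of neuronal differentiation showed small differences. Of 39 tested, 4 were higher and 0 lower. Syt4, a synaptotagmin of vesicles, stood at 445 and 342 normalized counts in the control and at 652, 713 and 604 in the deleted libraries (0.74, standard error 0.13), and Syn2, a synapsin, had 149.8 and 162 normalized counts in the controls against 206, 239 and 267 in the knockouts (0.60, standard error 0.14). The groups did not overlap for either. Nxph3 (0.66) and Tac1 (0.63) were the others. The list median of 0.07 was 0.26 without wild-type replicate 1, with 6 genes higher, and -0.06 without wild-type replicate 2, with 2 higher. Without wild-type replicate 2 the log2 fold change of Tac1 was 0.23.

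Progenitor, cell cycle and cell identity lists held almost no called gene. Of 43 S phase and 53 G2/M phase genes tested, 0 passed both thresholds, with medians of 0.02 and -0.03. Of 20 cytokinesis and central spindle genes, Kif20a alone was lower. Of 27 radial glia genes 0 were called (median -0.05). In 10 of them every knockout library lay below both controls and in 3 above, beside 12.3% and 10.1% of all autosomal genes. Of 22 genes of neurogenic commitment, 1 was lower, Gadd45b, a stress-induced gene that is also in the immediate early gene list, with 72.0 and 63.0 normalized counts in controls against 47.7, 52.9 and 34.2 in knockouts. Nr4a3, a nuclear receptor induced by activity, was the other lower member of the 25 immediate early genes tested (-0.87), whose median was -0.04. Of 14 Cajal-Retzius cell genes tested 0 were called (median -0.11). Of the 13 telencephalon and cortex identity genes none passed both thresholds. Their median was -0.15, and it was -0.40 in knockout replicate 3 against 0.04 and -0.12 in the other knockouts.

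The p53 targets, which respond to DNA damage and to failed division, had 0 of 25 genes past both thresholds and a median of 0.06. Of the 25, 19 had positive and 6 negative log2 fold changes. Every knockout library was above both controls in 7 (10.1% of all autosomal genes) and below them in 3 (12.3% of all). Ccng1, cyclin G1, a direct p53 target singled out after its values were seen, was at 1080 and 1112 normalized counts without and at 1534, 1575 and 1662 with the deletion. All knockouts were above the controls (log2 fold change 0.54, standard error 0.06, adjusted p = 0.0605 from limma with Benjamini-Hochberg adjustment), less than 1.5-fold. The classical targets Cdkn1a (0.22) and Mdm2 (0.05) had smaller differences, and Gadd45a was -0.46. Every knockout library was above the controls for Cdkn1a and below them for Gadd45a, and the groups overlapped for Mdm2.

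Lists for cell types outside the brain showed where single libraries differed. Scgb1a1, a secretory protein of lung airways, had 3.89 and 24.2 normalized counts in the controls against 15.1, 142 and 88.0 in the knockouts, and Sftpc, a surfactant protein of lung alveoli, stood at 5.91 and 5.34 normalized counts in the control and at 5.65, 33.5 and 40.0 in the deleted libraries. Both were high in knockout replicates 2 and 3 only. Scgb1a1 passed both thresholds with overlapping groups, and its log2 fold change of 2.41 was 1.23 and 3.59 without wild-type replicates 1 and 2, and 3.34 and 1.77 without knockout replicates 1 and 2. Endothelial (29 tested), erythroid (21) and mesenchymal (26) lists had 0 genes lower and 0 higher, with medians of 0.07, -0.03 and 0.08. The endothelial median was 0.28 and -0.02, and the mesenchymal median 0.33 and -0.11, without wild-type replicates 1 and 2. In the hypoxia list 1 of 37 genes was called, Ndrg1, a stress-responsive gene, with 31.5 and 26.7 normalized counts in controls against 46.6, 54.5 and 60.3 in knockouts (0.86), and the median of that list was -0.11. Over the 6 lung genes tested, of 14 listed, the median was 0.56. It lay between 0.20 (without wild-type replicate 2) and 0.79 (without knockout replicate 1) when single libraries were left out. With a mean of at least 50 it was 0.13.

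The germline Kif20a knockout was fitted alone on its own 3 wild-type and 3 knockout libraries, and the 2 comparisons share no library. There 90 of 13435 autosomal genes (0.67%) were lower and 285 (2.12%) higher. Of the 64 genes lower in the inducible knockouts that were tested there, 1 was lower in the germline knockouts, Kif20a, and 9 were higher. Of the 84 tested higher genes, 2 were higher, Gli1 and Prelid2, and 1 was lower, Kcnv1. In all, 66 of these 84 had a negative and 18 a positive germline log2 fold change, with a median of -0.44 beside -0.04 over all autosomal genes. Gli1 was thus past both thresholds upward in each (0.79 and 1.32). In the germline comparison its groups overlapped (standard error 0.49, adjusted p = 0.779 from limma). The interferon list had a median of -0.12 in the germline comparison, with 4 genes higher, and the motile cilia list one of -0.24 with 5 lower.

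The hem and BMP lists had medians of opposite sign in the 2 comparisons, and so had other lists. The germline median of the microglia list was -1.11, with 0 genes called, beside 0.35 in the inducible comparison, and that of the hypoxia list was 1.15, with 23 genes higher, beside -0.11. For the hem and BMP lists the germline medians were 0.40 and 0.37, with 5 and 4 genes higher and 0 lower, beside the inducible medians of -0.29 and -0.19. Msx2 had 28.7, 68.0 and 63.0 normalized counts in germline controls against 351, 160.4 and 131 in germline knockouts, a log2 fold change of 1.94 beside -1.08 in the inducible knockouts. Rspo1 had 339, 420.2 and 679 normalized counts in germline controls against 709.7, 907 and 793 in germline knockouts (0.80 beside -0.84). For both genes the groups did not overlap in either comparison. The difference between the 2 comparisons was not tested, since each was normalized alone, and other differences between the 2 experiments cannot be told apart from it.

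**Figure D5:**
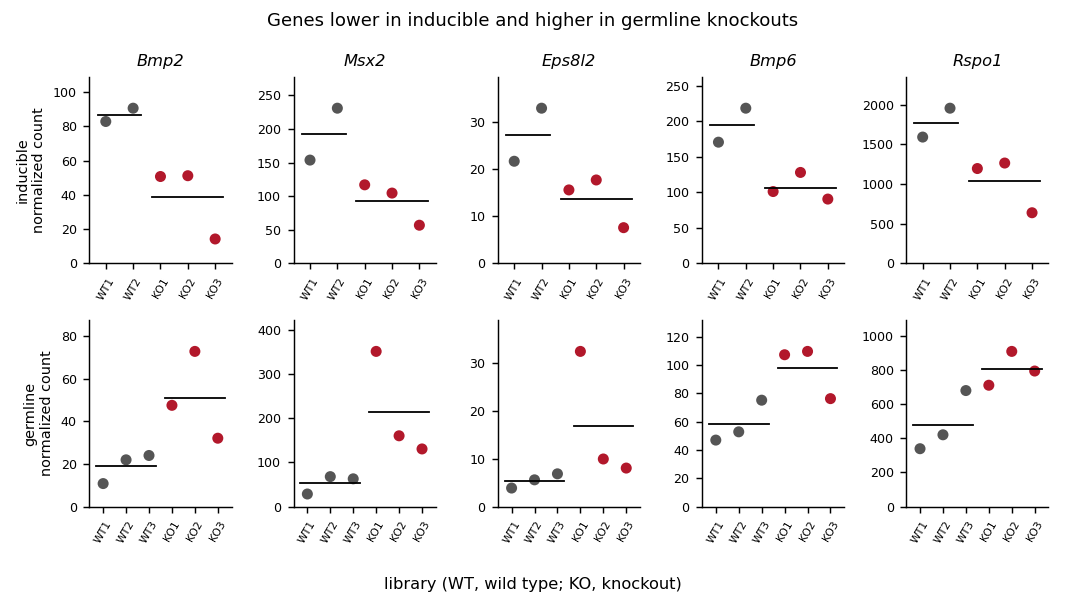
Normalized counts from 0 of 5 genes in the inducible (top) and the germline (bottom) libraries, wild type in grey and knockout in red, with a line at each group mean. In each gene the knockout libraries lie below the controls in the inducible and above them in the germline comparison, and levels should not be compared between the rows, which were normalized separately.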

How the data were processed

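RNA was measured by poly(A) RNA-seq (TruSeq) of E12.5 tissue, forebrain per the labels and cortical cells per the methods. For the deposited signal, the authors mapped reads to mm9 by TopHat, counted reads per RefSeq gene and scaled the counts in edgeR by the trimmed mean of M-values. Whether strand was used is not stated. Per the labels, TopHat was version 1.2.0, whereas the methods give another version. These normalized counts are equalized between libraries, which hides any change common to most genes. They are not whole reads, and no count model was fitted. Unused columns of samples numbered 0.

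The log2(normalized count + 1) values were fitted with limma 3.58.1 under R 4.3.3 (two-sided moderated test, eBayes with trend), over genes with a mean of at least 10, with Benjamini-Hochberg adjustment over all 14081 genes tested. The log2 scale understates changes of weakly expressed genes. The germline table was fitted alone. The fit was tested on simulated data. Depth is known only as about 1 read per normalized count, so no interval was computed except for Esr1. Exon lengths for the RPKM alternative came from GENCODE M1 on the same build, and promoters from RefSeq.

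The members, the 25 gene lists and the tests were chosen with earlier results of these data known. Named genes are Kif20a, Esr1, genes with an adjusted p under 0.05, in each direction the 12 largest log2 fold changes and the 5 smallest P values among called genes whose groups do not overlap, and up to 5 called members of each list. Sex-linked genes only describe the groups. Every other named gene, among them Foxj1, Ccno, Irf7, Irf9, Irgm1, Bst2, Rspo2, Wnt8b, Wnt3a, Bmp4, Nkx2-1, Shh, Wnt3, Il17rd, Ccng1, Csf1r and Sftpc, was chosen after its values were seen.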

Additional observations from a re-analysis of the deposited data

Results flagged for a closer look

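Of the named genes, 5 had all knockout libraries below the controls in the inducible comparison and above them in the germline comparison. In the inducible comparison alone, 12.3% of all autosomal genes had every knockout library below both controls. The share of all autosomal genes with both patterns is not given, so the 5 are a description only. The difference between the comparisons was not tested. The germline log2 fold changes were 1.37 for Bmp2 (inducible -1.34), 1.94 for Msx2 (-1.08), 1.24 for Eps8l2 (-0.9998), 0.74 for Bmp6 (-0.87) and 0.80 for Rspo1 (-0.84). In the germline comparison Bmp2 had 10.9, 22 and 24.04 normalized counts in the controls against 47.6, 72.9 and 32.2 in the knockouts, and Bmp6 had 47.1, 52.9 and 75.3 in controls against 107, 109.7 and 76.4 in knockouts. Eps8l2, which encodes an actin-regulating protein of the Eps8 family, missed the P threshold there. It had 3.88, 5.59 and 6.84 normalized counts in germline controls against 32.3, 9.93 and 8.04 in germline knockouts. All its germline controls were under the filter of 10, so it was tested there only through its knockout libraries, mainly knockout replicate 1. In the germline comparison limma gave each an adjusted p of 0.779.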

How the results depend on the processing

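The 67 lower and 100 higher autosomal genes became 32 and 34 with a mean of at least 50, 138 and 190 without a filter on low values, and 38 and 40 on the RPKM scale; with quantile normalization they were 77 and 85, and 52.5% of calls were higher in place of 59.9%. With single libraries left out there were 42 to 84 lower and 72 to 230 higher genes, and 1 to 2 genes past an adjusted p of 0.05 by limma. That count was 1 without the mean-variance trend and 1 on the RPKM scale. The log2 fold change of Kif20a was -0.70 without the trend (adjusted p = 0.147, limma), -0.67 with a replicate block (adjusted p = 0.3001, limma) and -0.74 to -0.67 with single libraries left out. When a wild-type library was left out, the lone control was assumed to vary like the knockouts. Deviations of same-numbered libraries from their group means correlated at -0.35 and -0.05. With 2 controls the deviations mirror each other, so these correlations cannot show whether the samples were paired. The replicate block gave 51 lower and 99 higher genes, among them 0 hem, 0 choroid plexus and 7 motile cilia genes lower. Knockout replicate 3 has no same-numbered control, so the block estimates log2 fold changes without it. The block is thus no separate check from leaving that library out. Without the trend 1 hem, 3 BMP and 1 choroid plexus genes were lower, and with a mean of at least 50 there were 7 motile cilia genes lower and 1 microglia and 2 neuronal differentiation genes higher. Of the named genes other than Kif20a, none reversed; the calls were weaker in 41 of 375 values under other settings and in 72 of 258 with 1 library left out.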

Other observations

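Genes outside the lists made up 41 of the 67 lower and 67 of the 100 higher genes. Il33, an alarmin cytokine, was at 14.8 and 22.3 normalized counts without and at 7.78, 10.3 and 4.33 with the deletion (log2 fold change -1.25), and Glis3, a Krüppel-like transcription factor, had 269 and 246 normalized counts in the controls against 168, 182 and 164 in the knockouts (-0.59). The groups did not overlap for either. The knockout mean of Il33 was 7.45, under the filter of 10. It was thus tested only through its wild-type libraries and could differ in 1 direction only. Agbl2, an enzyme that trims tubulin tails and is found in cilia, stood at 37.4 and 39.4 normalized counts in the control and at 22.4, 14.6 and 22.2 in the deleted libraries (-0.95). Robo3, a receptor of commissural axons, had 885 and 910.0 normalized counts in the controls against 2088, 1129 and 1318 in the knockouts (0.70), and Csmd1, a complement-regulating membrane protein of neurons, had 42.4 and 39.5 in controls against 77.8, 71.9 and 74.3 in knockouts (0.85). Both were above the controls in every knockout library, and both were chosen after their values were seen.

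Among X-linked genes, Eda2r, a death receptor of the tumour necrosis factor family and a target of p53, was at 110.4 and 101 normalized counts without and at 211, 247 and 243 with the deletion. It lies on a sex chromosome, so the group and the Y-linked difference cannot be told apart.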
